A study of Rattus norvegicus with 14 samples.

Results

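Enzymes that conjugate foreign and endogenous compounds, make and use glutathione, and remove peroxide and superoxide were followed in rat small intestine. Members were all probes whose gene symbol in the platform annotation belongs to the glutathione transferases, UDP-glucuronosyltransferases, sulfotransferases, N-acetyltransferases or aldo-keto reductases of family Akr7a, to glutathione synthesis, recycling and peroxidation, or to the quinone reductase, epoxide hydrolases, thioredoxin reductases, superoxide dismutases, catalase and peroxiredoxins. The rule found 51 genes of 4156 with a symbol on the array, each with 1 of its 4952 probes. A further probe, annotated to both Nat2 and Nat1, was left out because its gene is not settled. The study perfused small intestine of rats aged 20 days with solutions labelled HG and HF for 4 h or for 20 min. The labels do not spell these out, and what is known of the study gives them as high in glucose and high in fructose. Each array of 2 colours gives the ratio of an HG and an HF sample of the same number, in 5 pairs at 4 h (arrays 1 to 5) and 4 pairs at 20 min. Another 3 arrays, called self-self, carried 1 RNA of 4 h perfusion in both channels (1HG, 3HG and 3HF), and 1 array held labelling primers with no RNA sample named. Array 6 is a second array of pair 2 and was not in the fit. The labels name no unperfused intestine, no strain and no sex, and do not tell which animals the pairs came from. The p-values therefore cover the spread from array to array, which may be technical.

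Conjugation makes lipophilic compounds soluble by adding glucuronic acid, sulfate, glutathione or an acetyl group, and the enterocyte is, after the liver, a main site of it. Glutathione also serves the peroxidases that reduce hydrogen peroxide and lipid peroxides, beside catalase and the thioredoxin-dependent peroxiredoxins. Many of these genes are known targets of the factor NRF2 (Nfe2l2) at antioxidant response elements, and of the receptors AHR, PXR and CAR.

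Values are log ratios, treated as log2, centred on each array's median. Positive values probably stand for more RNA after HF. The direction is inferred from the fructose transporter gene Slc2a5, known to be induced by fructose, with a mean ratio of 1.65 ± 0.25 (SD, n = 5) on arrays 1 to 5. At 20 min Slc2a5 had -0.38, -0.01, -0.43 and -0.44, so the direction of those arrays rests on the order of the names in their titles alone, and each difference between the times assumes that both run the same way. Slc2a5 had -1.66 on array 6, whose title alone adds digits to the sample names that may stand for dyes, so array 6 is given apart. From a ratio alone, more RNA after HF and less after HG look the same, a gene's level is not known, and the tissue label cannot be checked against markers. In RNA of whole tissue, fewer cells of a type and less RNA per cell cannot be told apart. The SD over all probes was between 0.33 and 0.40 on the arrays at 4 h and 20 min, 0.35 and 0.30 on 3HG and 3HF, and 1.39 on 1HG, where 228 probes lay beyond 2.

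Between the times, 3 of the 51 genes had a higher ratio of HF to HG at 4 h: Akr7a3, which encodes an aldehyde reductase that acts on aflatoxin dialdehyde, Gss, which encodes glutathione synthetase, and Nat1, which encodes an arylamine N-acetyltransferase. None of the 51 was called with a lower ratio. Calls are those of limma's test with a p, adjusted by Benjamini-Hochberg over 4682 features, below 0.05, and 28 of all features passed (0.598%). Arrays at 4 h and 20 min did not overlap in 5 of 51 genes, against 6.54% of all features, and all 5 had the higher ratio at 4 h. They were the 3 called genes with Sod1 and Akr7a2. With all arrays at 20 min turned in sign about the self-self median, a choice made after the data had been seen, Nat1 kept its call (0.80, adjusted p = 0.0042), Gss (0.25, adjusted p = 0.241) and Akr7a3 (-0.066, adjusted p = 0.71) did not, and 605 of all features passed.

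Akr7a3 had ratios of 0.23, 0.43, 0.60, 0.37 and 0.50 on arrays 1 to 5 at 4 h and -0.20, -0.30, -0.34 and -0.44 on the 4 arrays at 20 min. The self-self arrays 1HG, 3HG and 3HF gave 0.18, -0.06 and 0.09, between the sets of arrays, so every array at 4 h lay above and every array at 20 min below the RNAs set against themselves. The difference between the times was 0.75 ± 0.10 (SE; 1.68-fold; limma adjusted p = 0.00745), the fourth smallest p of all features. It passed in each of 12 fits with 1 array left out. Beside the turned sign, 4 alternatives ended the call. Averaging array 6 into array 2 as deposited gave a limma adjusted p of 0.359. That average joins ratios of opposite sign, 0.43 and -1.42, which lowers the mean at 4 h by construction. Array 6 turned in sign in place of array 2 gave 0.15, while the call was kept with array 6 turned in sign and averaged with array 2. A trend in the variance prior over the mean absolute log ratio gave 0.105, and the replicate number as a block 0.0786. Akr7a3 differed from the self-self arrays by 0.36 ± 0.11 at 4 h (adjusted p = 0.299) and by -0.39 ± 0.11 at 20 min (adjusted p = 0.801), neither of which passed. On array 6 the ratio was -1.42, opposite in sign to arrays 1 to 5.

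Gss encodes the enzyme that adds glycine to γ-glutamylcysteine, the last step of glutathione synthesis. Its ratios were 0.42, 0.76, 0.53, 0.04 and 0.41 at 4 h and -0.20, -0.18, -0.46 and -0.21 at 20 min, with 0.12, -0.07 and -0.04 on the self-self arrays. Array 4 at 4 h was the low one, within the range of the self-self arrays, and the groups of the times did not overlap. The difference was 0.70 ± 0.13 (SE; 1.62-fold; limma adjusted p = 0.0441) and passed in 2 of 12 fits with 1 array left out, those without the self-self array 1HG and without 4 h array 4. The ratio on array 6 was -0.47.

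Nat1 moves an acetyl group from acetyl-CoA to aromatic amines. Its ratios were 0.95, 1.16, 0.78, 0.92 and 1.26 at 4 h, 0.18, 0.59, 0.55 and 0.22 at 20 min and 0.26, 0.30 and 0.36 on the self-self arrays. The probe thus had a positive ratio also where an RNA was set against itself, and all 5 arrays at 4 h and arrays 2 and 3 at 20 min stood above that. The difference between the times was 0.63 ± 0.12 (SE; 1.55-fold; limma adjusted p = 0.0478) and passed in 1 of 12 fits with 1 array left out, that without 1HG. From the self-self arrays Nat1 differed by 0.71 ± 0.14 at 4 h, the smallest p of the members in that comparison (adjusted p = 0.128), and by 0.08 ± 0.14 at 20 min. Array 6 gave 0.07, below the self-self arrays. The probe annotated to Nat2 and Nat1 together gave 0.38, 0.05, -0.38, 0.00 and -0.33 at 4 h and 0.30, 0.02, -0.13 and -0.43 at 20 min, which overlap.

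**Figure D1:**
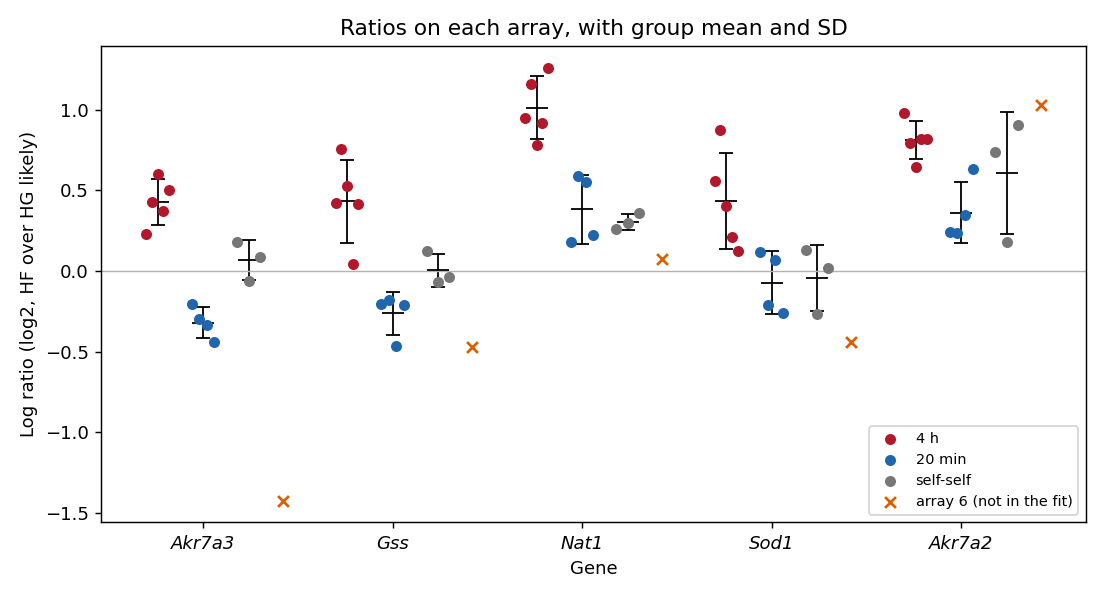
Log ratios (log2; positive likely HF over HG) of the 5 members whose arrays at 4 h and 20 min did not overlap. Points are arrays, horizontal bars the group means and whiskers the SD (n = 5, 4 and 3), and crosses mark array 6. For Akr7a3 the 4 h arrays sit between 0.23 and 0.60 and the 20 min arrays between -0.44 and -0.20.

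The promoter windows of Akr7a3 and Gss are shown because these genes were called. They come from RefSeq (GRCr8 build), 5′ to 3′ on the gene's strand. Each runs from 250 bases before to 50 after 1 start site assigned to the gene. Akr7a3 lies at chr5:156876471-156876770 on the plus strand and Gss at chr3:164538257-164538556 on the minus strand. For Akr7a3 the start site is the gene's 5′ end at 156876721. For Gss it lies inside the gene, whose 5′ end is at 164538343. Capitals mark GCGTG, the core of the dioxin response element, or TGACNNNGC, the core of the antioxidant response element, searched on both strands. Each window holds 1 GCGTG, at -57 from the start in Akr7a3 and -5 in Gss, and no TGACNNNGC.
Akr7a3: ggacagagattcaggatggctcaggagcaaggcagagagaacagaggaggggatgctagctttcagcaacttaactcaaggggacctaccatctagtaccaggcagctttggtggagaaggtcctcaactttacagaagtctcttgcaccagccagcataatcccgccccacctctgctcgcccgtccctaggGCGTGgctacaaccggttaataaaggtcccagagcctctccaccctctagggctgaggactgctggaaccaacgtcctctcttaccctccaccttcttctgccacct
Gss: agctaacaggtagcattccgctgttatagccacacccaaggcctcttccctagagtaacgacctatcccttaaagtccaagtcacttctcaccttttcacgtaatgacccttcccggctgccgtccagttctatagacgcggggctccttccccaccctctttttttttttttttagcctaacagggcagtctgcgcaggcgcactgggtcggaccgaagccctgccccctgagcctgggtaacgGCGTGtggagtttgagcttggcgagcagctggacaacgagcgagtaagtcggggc

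Windows were found for 41 of the 51 genes, 45 windows in all since some genes have several starts. TGACNNNGC was present in 10 of the 45 (22.2%) and in 12.1% of all 33469 windows of the table, and GCGTG in 20 (44.4%) and 29.7%. The windows with TGACNNNGC were those of Ephx1, Gclm, Gsta1, Gsta2, Gstm5, Prdx1, Prdx4, Prdx5, Sod2 and Txnrd1, none of which was called in any comparison. A match is a stretch of letters and shows no binding.

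Beside Gss, the enzymes that make and recycle glutathione had small ratios. Gclc and Gclm encode the catalytic and modifier subunits of glutamate-cysteine ligase, the rate-limiting step before Gss. Gclc had means of -0.00 ± 0.22 (SD, n = 5) at 4 h and 0.09 ± 0.11 (n = 4) at 20 min, a difference of -0.09 ± 0.12 (SE), and that of Gclm was 0.02 ± 0.12. Gss thus differed by 0.70 between the times where the ligase subunits differed by under 0.1 in size, although the gap between these genes was not tested. Gsr, which encodes glutathione reductase, had ratios of -0.20, -0.08, 0.13, -0.28 and -0.19 at 4 h and 0.05, -0.09, -0.20 and -0.17 at 20 min. The groups overlapped, with a difference of -0.02 ± 0.48. Self-self array 1HG, in neither group, widens this SE through the shared spread, and without 1HG the SE was 0.11.

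None of the superoxide dismutase genes was called. Sod1, the cytosolic copper and zinc enzyme, had ratios of 0.56, 0.88, 0.41, 0.21 and 0.13 at 4 h and 0.12, -0.21, 0.07 and -0.26 at 20 min. The lowest array at 4 h lay just above the highest at 20 min, and the self-self arrays had 0.13, -0.27 and 0.02. The difference between the times was 0.51 ± 0.16 (SE; limma adjusted p = 0.184) and did not pass. Sod2, the mitochondrial enzyme, differed by 0.19 ± 0.11 (adjusted p = 0.484). Sod3, the secreted enzyme, had ratios of -0.04, 0.50, 0.20, 0.90 and 0.02 at 4 h and 0.49, 0.55, 0.70 and 0.94 at 20 min, a difference of -0.36 ± 0.18 (adjusted p = 0.426). All 4 arrays at 20 min lay above the self-self arrays (0.29, 0.22 and 0.45), with a difference of 0.35 ± 0.21 at 20 min that did not pass (adjusted p = 0.801). Catalase (Cat) had a mean of 0.00 ± 0.10 (SD, n = 5) at 4 h and is listed at exactly 0 on all 4 arrays at 20 min, so no ratio is given for that time.

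Exact zeros stand on the arrays at 20 min only, 274 values on 178 probes, 17 of which are at 0 on all 4 arrays. Cat and Gstp2 are among these 17, and Gpx3 has a single 0. Leaving these zeros out as missing, a choice made after the data had been seen, left the same 3 members called.

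Akr7a2, the family's other measured gene, encodes an aldehyde reductase that acts on succinic semialdehyde. Its ratios were 0.98, 0.79, 0.65, 0.82 and 0.82 at 4 h, 0.24, 0.23, 0.35 and 0.63 at 20 min, and 0.74, 0.18 and 0.90 on the self-self arrays. The groups of the times did not overlap, the nearest arrays being 0.65 and 0.63, but the self-self arrays spanned both. The difference between the times was 0.45 ± 0.15 (SE; limma adjusted p = 0.202) and did not pass. On array 6 the ratio was 1.03, of the same sign as arrays 1 to 5, unlike Akr7a3. Akr7a2 and Akr7a3 start at positions 156835589 and 156876721 of chromosome 5 in GRCr8, on the same strand.

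Among the peroxidases, Gpx1 had the highest mean ratio of all members at both times. It encodes the cytosolic glutathione peroxidase, a selenoprotein. Its ratios were 0.66, 1.18, 2.33, 2.52 and 1.68 at 4 h, 1.27, 1.27, 1.86 and 1.20 at 20 min and 2.53 on array 6. The self-self arrays gave 1.22, 2.00 and 1.76, as high as the others, so these ratios do not separate HF from HG. The difference from the self-self arrays was 0.01 ± 0.38 (SE) at 4 h and -0.26 ± 0.39 at 20 min. The primer array gave -0.05. Gpx3, the plasma enzyme, Gpx4, which reduces lipid peroxides in membranes, Gpx5 and Gpx6 differed between the times by -0.08, -0.19, -0.14 and -0.11, with adjusted p from 0.655 to 0.969. The highest, that of Gpx5, was 0.826 in the limma fit without self-self array 1HG. The peroxiredoxin genes Prdx1 to Prdx5 differed by 0.19, 0.22, 0.15, -0.06 and -0.27, and none passed (adjusted p from 0.386 to 0.83). Prdx4, the peroxiredoxin of the endoplasmic reticulum, lay between -0.03 and 0.06 on the 5 arrays at 4 h, an SD of 0.03 that 99.9% of all features equalled or exceeded. The thioredoxin reductase genes Txnrd1 (cytosolic) and Txnrd2 (mitochondrial) differed between the times by 0.16 ± 0.18 and 0.20 ± 0.16. Nqo1, the quinone reductase often used to read NRF2 activity, had -0.13, -0.01, 0.08, -0.24 and -0.03 at 4 h and 0.23, 0.29, -0.35 and 0.18 at 20 min. Its difference was -0.15 ± 0.13 (SE; adjusted p = 0.675), and the groups overlapped.

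Of the 9 glutathione transferase genes, none was called in a comparison. Between the times the differences of the 8 with values at both ran from -0.19 (Gstm5) to 0.40 (Gsta1), with 6 above 0. Gsta1 had -0.04, -0.04, -0.39 and -0.08 at 20 min, all below the self-self arrays at 0.11, 0.11 and -0.03, with a difference of -0.20 ± 0.27 (SE; limma adjusted p = 0.96). Gsto1, the omega enzyme, had 0.04, 0.05, 0.18, 0.09 and 0.19 at 4 h, all above the self-self arrays (-0.07, -0.10 and -0.15). Its difference from them was 0.22 ± 0.10 (SE; limma adjusted p = 0.492). Gstm5 had -0.36, -0.33, 0.01, 0.08 and -0.10 at 4 h and 0.39, 0.16 and 0.00 on the self-self arrays, a difference of -0.32 ± 0.14 (adjusted p = 0.466). Array 6 gave 1.33 for Gstm5, outside the range of the other arrays. Gstm1, of the mu class too, had 0.12, -0.19, 0.11 and 0.17 at 20 min and -0.06, -0.32 and -0.29 on the self-self arrays, a difference of 0.27 ± 0.14 (adjusted p = 0.801). Array 2 was the one at 20 min that overlapped with them. Gsta4, Gstt1 and Gstt2 differed between the times by 0.06, 0.09 and 0.09. Gstp2 is listed at 0 on all arrays at 20 min and ranged from -0.44 to 0.41 at 4 h.

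A few members spread widely between the arrays at 4 h rather than shifting as a group. Over the 5 arrays, 8 of 51 members (15.7%) had an SD above 0.4, against 7.39% of all features. The 8 were Gpx1, Gsta2, Gsta1, Ugt1a6, Sult2a1, Ugt2b1, Prdx1 and Ephx2. The median SD was 0.22 over the members and 0.20 over all features. Gsta2, an alpha class glutathione transferase known to be inducible through several response elements, had ratios of -0.41, 0.71, 0.65, -0.19 and -0.66 on arrays 1 to 5. Ugt1a6, which conjugates small planar phenols and is a known target of AHR, had -0.39, 0.14, 0.53, -0.08 and -0.82. Gsta1 had 0.03, 0.57, 1.09, -0.03 and -0.35, and Ephx2, the soluble epoxide hydrolase, had -0.46, 0.40, 0.45, -0.07 and -0.33. In each of these 4 genes arrays 2 and 3 were the high ones, and arrays 1, 4 and 5 were near or below 0. Array 6, the second array of pair 2, gave -0.65 for Gsta1, -0.20 for Gsta2, 0.30 for Ugt1a6 and -0.83 for Ephx2. These values were not all of 1 sign, whereas all 4 genes were above 0 on array 2. The 4 genes were set side by side after their values had been seen, and 5 arrays are too few for a correlation. Of the other 4 of the 8, Gpx1 was highest on arrays 4 and 3. Sult2a1 was highest on arrays 2 and 1 (0.81 and 0.36, with -0.26 on array 3) and Ugt2b1 on arrays 5 and 1 (-0.04 and -0.29). Prdx1 was highest on arrays 2 and 3 too, with -0.61, 0.44, 0.32, 0.22 and 0.13, but stood above 0 on arrays 4 and 5. The 4 genes set side by side did not share an order at 20 min. Gsta1 and Gsta2 were lowest on array 3 (-0.39 and -0.41), Ephx2 ran from -1.18 to 0.67, and Ugt1a6 stayed between -0.02 and 0.22. Ephx1, the microsomal epoxide hydrolase, did not follow the 4 genes at 4 h, with 0.25, 0.13, -0.17, 0.17 and 0.00.

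**Figure D2:**
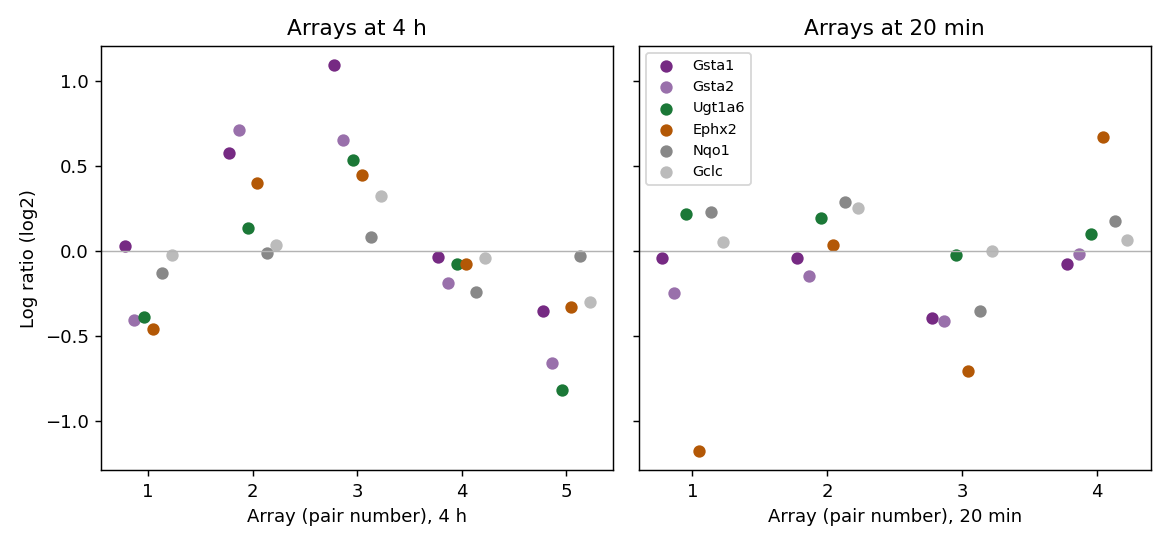
Log ratios (log2) of Gsta1, Gsta2, Ugt1a6, Ephx2, Nqo1 and Gclc on each array at 4 h (left, pairs 1 to 5) and at 20 min (right, pairs 1 to 4). Points are single arrays. Pairs 2 and 3 at 4 h hold the high values of the first 4 genes, up to 1.09 for Gsta1, while Nqo1 stays between -0.24 and 0.08.

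Promoter windows of Gsta1, Gsta2 and Ugt1a6, grouped above by arrays 2 and 3, are shown for comparison, marked as above. No window was found for Ephx2. Gsta1 lies at chr9:31216483-31216782 and Gsta2 at chr8:88077043-88077342, both on the minus strand, and Ugt1a6 at chr9:96194768-96195067 on the plus strand. The start sites used for Gsta1 and Gsta2 lie inside the genes, whose 5′ ends are at 31216606 and 88077168. Gsta1 holds TGACTTTGC at 31 after the start, and Gsta2 holds GCTAGGTCA, which reads TGACNNNGC on the other strand, at 37. Gsta2 also holds GCGTG on both strands, at -24 and -19, which touch each other, and Ugt1a6 holds 1 GCGTG at -133.
Gsta1: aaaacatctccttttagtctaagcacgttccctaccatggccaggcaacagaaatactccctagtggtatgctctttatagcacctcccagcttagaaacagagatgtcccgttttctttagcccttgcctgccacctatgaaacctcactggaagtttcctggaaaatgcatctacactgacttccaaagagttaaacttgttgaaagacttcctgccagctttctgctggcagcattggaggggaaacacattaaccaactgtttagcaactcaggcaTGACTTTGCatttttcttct
Gsta2: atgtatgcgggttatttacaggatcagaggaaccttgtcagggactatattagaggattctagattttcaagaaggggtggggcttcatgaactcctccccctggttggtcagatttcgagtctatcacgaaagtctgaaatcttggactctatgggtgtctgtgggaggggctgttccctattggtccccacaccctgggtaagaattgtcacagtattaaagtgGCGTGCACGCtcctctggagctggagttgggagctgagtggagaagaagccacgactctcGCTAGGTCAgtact
Ugt1a6: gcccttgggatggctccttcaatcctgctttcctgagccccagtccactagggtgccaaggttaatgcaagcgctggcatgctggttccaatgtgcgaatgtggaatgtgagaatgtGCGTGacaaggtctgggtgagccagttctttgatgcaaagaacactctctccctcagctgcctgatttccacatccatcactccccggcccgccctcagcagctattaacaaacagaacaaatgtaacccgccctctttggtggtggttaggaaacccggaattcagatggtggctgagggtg

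The UDP-glucuronosyltransferase genes were not called either. The Ugt1a genes share their last exons, so a probe may not tell them apart, and Ugt1a9-ps has a symbol of the form used for pseudogenes. Of 8 measured, 7 had a lower ratio at 4 h than at 20 min, with a median difference of -0.18 against -0.01 over all features, and none passed (adjusted p from 0.416 to 0.972). Ugt1a5 showed the largest of these differences, -0.36 ± 0.18 (SE), with -0.10, 0.81, 0.05, 0.27 and -0.00 at 4 h and 0.53, 0.85, 0.44 and 0.42 at 20 min. Array 2 at 4 h was as high as those at 20 min. Ugt1a1, the bilirubin enzyme, differed by -0.23 ± 0.18, and Ugt1a9-ps by -0.21 ± 0.15. At 20 min Ugt1a9-ps had -0.13, 0.57, 0.22 and 0.07 against -0.17, 0.01 and -0.36 on the self-self arrays, a difference of 0.36 ± 0.17 (adjusted p = 0.801). Ugt2b7 had 0.06, 0.06, 0.34, 0.22 and 0.27 at 4 h, all above the self-self arrays (0.04, -0.19 and 0.06, the last lower by less than the rounding), with a difference of 0.22 ± 0.13 that did not pass (adjusted p = 0.513). Ugt2b1 had negative means in every group, -0.47 ± 0.42 (SD, n = 5), -0.40 ± 0.28 (n = 4) and -0.32 ± 0.09 (n = 3). On array 6 the ratios of Ugt1a5 (4.10) and Ugt2b35 (2.37) lay far outside those of the other arrays.

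The 8 sulfotransferase genes differed between the times by -0.39 to 0.24, with 3 above 0, and none was called. Sult1b1, a phenol and thyroid hormone sulfotransferase of the gut, had -0.02, -0.30, -0.24, -1.06 and -0.39 at 4 h and 0.01, -0.05, 0.09 and -0.09 at 20 min. Array 4 at 4 h was the low one. The difference was -0.39 ± 0.19 (SE; limma adjusted p = 0.4). Sult1c2 had -0.10, -0.20, -0.05 and -0.30 at 20 min, all below the self-self arrays at 0.06, 0.08 and 0.07, with a difference of -0.24 ± 0.14 (adjusted p = 0.801). Sult1d1 differed between the times by 0.24 ± 0.12 and Sult1a1, a phenol sulfotransferase, by -0.11 ± 0.12. The hydroxysteroid sulfotransferase genes Sult2a1 and Sult2a6 differed by 0.09 and 0.08, and the brain form Sult4a1 by -0.03.

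Against the self-self arrays no member was called at 4 h, where 0.0641% of all features were, nor at 20 min, where 0.0427% were. At an unadjusted p below 0.05 there were 6 of 51 at 4 h (11.8%, against 9.97% of all features) and 1 at 20 min (1.96%, against 5.21%). Groups did not overlap in 4 of 51 at 4 h (6.71% of all features) and in 5 at 20 min (7.01%). With exact zeros left out, the counts at 20 min were 1 and 5 of 49. The members' median difference was 0.03 at 4 h and 0.01 at 20 min, and -0.01 and 0.00 over all features. Between the times, over the 49 members with values at both, the median was 0.03, against -0.01 over all features, and 25 lay above 0. The centring of each array on its median holds the median over all features near 0, and the members' medians are relative to it.

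The self-self array 1HG set the size of several of these differences. On 1HG, Sult1c3 had -6.67, Gpx5 -3.39, Gsr 2.92, Ugt1a6 2.54 and Gsta2 1.93, and all 5 were within 0.3 of 0 on 3HG and 3HF. Their probe numbers in the deposited table lie at its ends (48, 51, 4723, 4656 and 4722), where 11 of the 51 members have a number of 750 or less and 6 one above 4500. Sult1c3 had 0.10, -0.14, -0.19, 0.11 and -0.33 at 4 h and -0.05, 0.31, -0.25 and 0.24 at 20 min. With 1HG in, it differed from the self-self arrays by 2.13 ± 1.16 at 4 h and 2.29 ± 1.22 at 20 min, and without it by -0.09 ± 0.17 and 0.07 ± 0.18. Gsr moved from -1.07 to -0.08 at 4 h and from -1.05 to -0.06 at 20 min. Gpx5 moved from 1.10 to -0.04 and from 1.24 to 0.10, Ugt1a6 from -0.93 to -0.06 and from -0.68 to 0.18, and Gsta2 from -0.61 to 0.04 and from -0.84 to -0.19. Txnrd2, at 0.60 on 1HG and -0.24 and -0.30 on the others, moved from 0.08 to 0.37 at 4 h without it. Between the times, 1HG enters only the shared spread. Leaving it out lowered that SE from 0.48 to 0.11 in Gsr, from 1.07 to 0.14 in Sult1c3 and from 0.60 to 0.24 in Gpx5. In Ugt1a6 the SE fell from 0.47 to 0.21 and in Gsta2 from 0.40 to 0.25. Without 1HG no member was called against the self-self arrays, and the same 3 were called between the times.

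**Figure D3:**
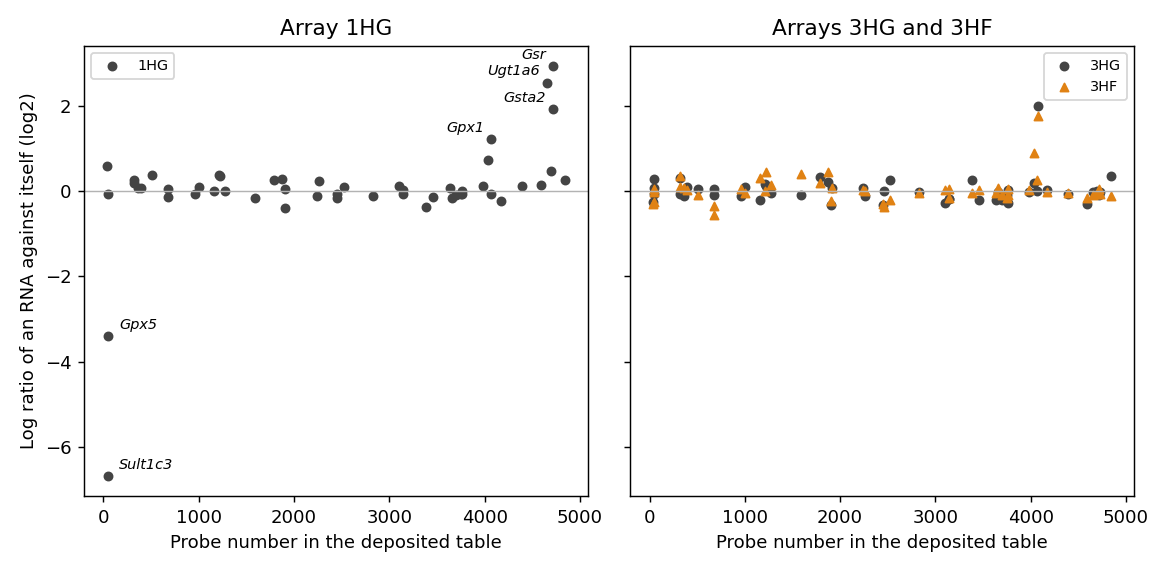
Log ratios (log2) of the 51 members on the self-self arrays, where both channels hold 1 RNA, against the probe number in the deposited table. Left, array 1HG; right, arrays 3HG and 3HF. On 1HG 5 members at the ends of the numbering lie from -6.67 to 2.92, and Gpx1 is high on all 3 arrays.

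**Figure D4:**
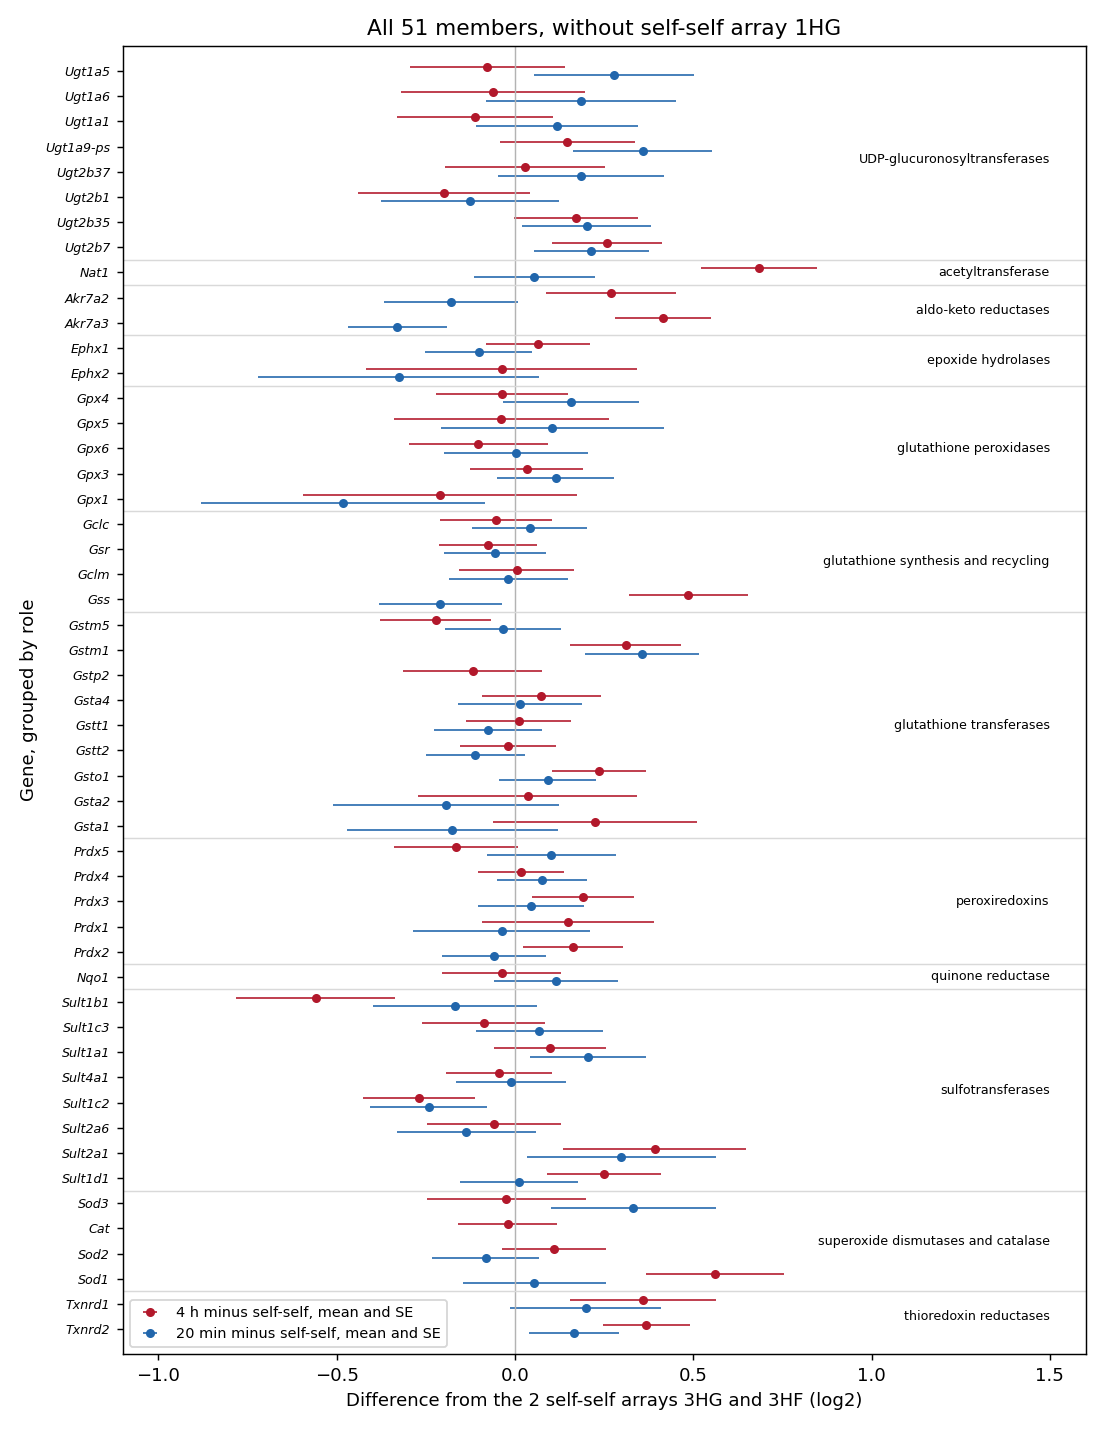
Differences from the self-self arrays 3HG and 3HF (log2, mean and SE of the limma fit without 1HG) for the 51 members by role, at 4 h (red) and 20 min (blue). Cat and Gstp2 have no point at 20 min. The highest values at 4 h, from 0.42 to 0.68, are those of Akr7a3, Gss, Sod1 and Nat1, none of them called in this comparison.

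The other genes of these pathways were taken from 5 lists, with 65 of 109 listed genes measured. None was called in a comparison. With exact zeros left out, 6 of 65 at 4 h, 1 of 64 at 20 min and 11 of 64 between the times had an unadjusted p below 0.05 (9.93%, 5.38% and 13.7% of all features). Of the NRF2 pathway and NADPH supply 14 were measured. Slc3a2, a subunit of the cystine importer, had a difference of 0.56 ± 0.14 between the times (SE; limma adjusted p = 0.122), the metallothionein gene Mt1 -1.02 ± 0.28 (adjusted p = 0.138) and Txn2, the mitochondrial thioredoxin, 0.22. The genes of NRF2 itself (Nfe2l2) and of its inhibitor (Keap1), named after their values had been seen, differed by 0.03 and 0.12. Among 16 genes of glutathione supply and use, Ahcy, an enzyme of the methionine cycle, had 0.55 ± 0.16 (adjusted p = 0.162), Mat1a 0.22 and Gstk1 -0.36. Of 14 receptors and factors, Cebpa had 0.31 ± 0.11 (adjusted p = 0.249) and Nr1i2 (PXR) 0.28. Nr1h3 (LXR alpha) is listed at exactly 0 on all arrays at 20 min, and had -0.31, -0.39, -0.28, -0.77 and -1.20 at 4 h. Ugdh, which makes the UDP-glucuronic acid that the Ugt enzymes use, had 0.62 ± 0.15 (adjusted p = 0.113), and Tpmt and Bhmt, in the same list of 4, had 0.23 and 0.04. Of 17 other oxidoreductases, Akr1c14 had 0.60 ± 0.15 (adjusted p = 0.122), Cbr1 0.38 and Aldh3a1 0.41.

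Markers of cell types, 39 measured, were not called in any comparison. The mean ratio of 9 of 12 enterocyte genes lay between -0.41 and -0.17 on the arrays at 4 h, between -0.30 and 0.01 at 20 min and between -0.37 and -0.06 on the self-self arrays. Apoa1 (-0.44), Fabp2 (-0.50) and Apoa4 (-0.39) had the smallest p among them between the times (adjusted p from 0.126 to 0.249). Of the 9, 6 had a lower ratio at 4 h than at 20 min and 3 a higher one, up to 0.34 in Si. The mean of 7 of 11 blood cell genes lay between 0.02 and 0.24 at 4 h and between -0.28 and 0.05 at 20 min, and that of 14 liver and pancreas genes between -0.23 and 0.16 and between -0.05 and 0.06. The mean of 6 of 7 smooth muscle genes lay between -0.29 and 0.00 at 4 h and between -0.11 and 0.17 at 20 min, and that of 3 of 7 goblet cell genes between -0.15 and 0.29 and between 0.07 and 0.32. On the self-self arrays the mean of the blood cell genes lay between -0.13 and 0.24 and that of the liver and pancreas genes between -0.02 and 0.12. The smooth muscle genes had means there between -0.02 and 0.44 and the goblet cell genes between -0.86 and 0.12. The part of these cell types in the ratios of the conjugation genes was not tested.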

How the data were processed

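The authors deposited 1 table of log ratios of 14 arrays, treated here as log2 values. Their base, background correction, normalization and direction were not stated in the labels or the file, and signal intensities were not analysed. Columns were matched by sample, and 0 were left unmapped. The platform annotation gave 1 symbol for 4426 of 4952 probes. RefSeq (GRCr8) holds 50 of the 51 member identifiers. Arrays were centred on their median and probes of 1 symbol averaged, which gave 4682 features. A single limma fit (3.58.1, R 4.3.3; lmFit and eBayes) of 12 arrays in 3 groups gave the 3 comparisons (residual degrees of freedom 9, prior 2.84). The steps were tested on simulated data. Members that were called, that were among the 5 smallest p of a comparison or whose groups did not overlap are given array by array in the groups compared. The members and lists were chosen with earlier results of these data known. Array 6 was kept out of the fit, a treatment taken over from earlier work on these data. Alternatives changed array 6, control, arrays in the fit, centring, scaling, normalization, probe averaging, weights, variance prior and pairing, and left out each array. The trend in the variance prior ran over each feature's mean absolute log ratio, not over intensity. Leaving out exact zeros and turning the sign of the arrays at 20 min were added after the data had been seen. The number of arrays limits the precision.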

Additional observations from a re-analysis of the deposited data

Results flagged for a closer look

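Single arrays stood apart from the others of their group at 20 min among 15 named members checked in 30 groups, and chance alone flags about 1 group in 20: Gss on array 3 (-0.46), Gsta1 on array 3 (-0.39) and Gstm1 on array 2 (-0.19). The ratio differed between 4 h and 20 min by limma's test, if both times run the same way, in Akr7a3 (0.75), Gss (0.70) and Nat1 (0.63). Array 6, which was not in the fit, gave ratios beyond 1 in size and outside the range of the 12 arrays of the fit for Ugt1a5 (4.10), Gpx1 (2.53), Ugt2b35 (2.37), Gstm5 (1.33), Akr7a2 (1.03), Sult1c2 (-1.05) and Akr7a3 (-1.42). Relative to the median of the self-self arrays, 29 of the 51 members (56.9%) had on array 6 the sign opposite to the mean of arrays 1 to 5, against 46.6% of all features. The values of array 6 less that median were -1.51 for Akr7a3, -0.43 for Gss, -0.23 for Nat1, -0.46 for Sod1 and 0.29 for Akr7a2.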

How the results depend on the processing

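The count of 3 members called between 4 h and 20 min was 4 in 1 of 27 alternatives, 3 in 7, 2 in 3, 1 in 12 and 0 in 4. It was 0 with array 6 averaged into array 2 as deposited, and 0 with array 6 turned in sign in place of array 2. With array 6 turned in sign and averaged with array 2, Akr7a3 kept its call. The count was 0 with a trend in the variance prior over the mean absolute log ratio. Scaling the arrays to 1 spread and the ordinary residual spread each gave 1. With 1 array left out it ranged from 1 to 3. With the replicate block it was 0. Same-numbered arrays of the times correlated in their deviations by -0.07, 0.16, -0.03 and -0.02 (Pearson, pairs 1 to 4). Of 8 arrays, 2 correlated best with their own number. Whether same-numbered samples came from related animals cannot be told from these values, since what HG and HF samples share cancels in their ratio. Akr7a3 kept its call in all 12 fits with 1 array left out, with differences from 0.70 to 0.80, Gss in 2 and Nat1 in 1. The count of 4 came with the arrays at 20 min turned in sign, and 1 of these (Nat1) was among the 3. Under that setting the differences between the times became -0.066 for Akr7a3 and -0.31 for Akr7a2, and those from the self-self arrays at 20 min 0.43 for Akr7a3, 0.18 for Gss, 0.29 for Gsta1, 0.24 for Sult1c2, -0.35 for Ugt1a9-ps, -0.42 for Gstm1 and -0.41 for Sod3. No named gene's difference changed sign in the other alternatives. Against the self-self arrays 0 members were called at 4 h and 20 min in 27 of 28 alternatives. The exception tested the ratio against 0 without the self-self arrays, with 9 members at 4 h and 6 at 20 min (820 and 442 of all features), Gpx1 among them at both times. The cause of these changes was not tested.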
